A study of Homo sapiens with 30 samples.

Results

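The 6 genes described here encode ISG15, a ubiquitin-like protein, and the enzymes that attach it to other proteins and take it off again: UBA7, UBE2L6, HERC5, HERC6 and USP18. They were taken by symbol, as 6 of the 61471 genes listed in each of 2 tables of RNA levels, 1 for the glioblastoma cell line U87 and 1 for the glioblastoma cell line U251. All 6 were expressed in every library of both lines and passed the filter on low values. Against untreated cells, the 6 genes of U251 were all higher at every time point after the start of IFN-γ, a call that UBE2L6 lost at D14 under another scaling, with ISG15 and HERC6 raised the most. In U87, UBA7 and HERC6 rose at D3, at D28 and after washout, and at D14 the adjusted p was passed by UBA7 alone. Under quantile normalization HERC6 was below 2-fold at D3 and UBA7 was not past the adjusted p at D14.

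ISG15 is among the proteins that cells make in large amounts after interferon. UBA7 activates it, UBE2L6 receives it as the conjugating enzyme, and HERC5 is the ligase that transfers it to proteins in human cells, many of them newly made. HERC6 is a close relative of HERC5 and serves as the main ISG15 ligase in mouse cells. USP18 cleaves ISG15 from its targets and, independently of that activity, holds back signaling at the type I interferon receptor. The genes are known best as targets of type I interferon, which acts through a complex that holds STAT2 and IRF9, whereas IRF1 is a main mediator of IFN-γ.

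RNA was sequenced from U87-MG and U251-MG, established human glioblastoma lines that the study did not profile again for identity after receipt and that carried no engineered change. The groups of each line were cells without IFN-γ (Untreated), the same cells on day 3, day 14 or day 28 of continuous IFN-γ (named D3, D14 and D28), and a washout group with 14 days of IFN-γ and 14 further days in plain medium (D28WO), with the dose given as 1 µg/mL in the treatment protocol and as 1 µL/mL in the description of the single samples. Each group had 3 libraries from cultures that the study describes as separate, but D3 and D14 of U87 are given here by 2 libraries each, since 2 columns of the U87 table carry 1 name and were left out. By the study's methods, cultures were split on day 14 into those kept in IFN-γ and those washed out, so D28 and D28WO may share cultures, and which libraries do is not given in the sources used here. That leaves 13 libraries of U87 and 15 of U251. Untreated is labelled day 3 in both lines, while by the study's methods these cells were collected at the start. No group kept without IFN-γ throughout was sampled at day 14 or day 28. In D14, D28 and D28WO against Untreated, time in culture thus cannot be told apart from IFN-γ. Levels are in TPM, a unit of transcript abundance scaled for gene length and for the total of the library, so the sequencing depth behind a value is unknown. In bulk RNA, fewer cells with a transcript and less of it per cell cannot be told apart.

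Genes above 0 numbered 24223 to 28649 per U87 library and 24450 to 30246 per U251 library, and the Untreated libraries of U87, at 24223 to 25459, lay below every other U87 library. IRF1, which IFN-γ switches on, did not follow the label in some groups. The libraries labelled D14 of U87 held 110 and 134 TPM of IRF1, against 130 to 136 TPM in Untreated. The D28WO libraries of U87, labelled as 14 days without IFN-γ, held 457 to 545 TPM of IRF1, against 443 to 539 TPM at D28. In U251 the libraries labelled D14 held 288 to 321 TPM of IRF1, between Untreated (137 to 145 TPM) and D3 (514 to 721 TPM), while D28WO held 588 to 663 TPM. For this reason the counts that lead the results are also given with the D14 and D28WO libraries left out of the fit.

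Most markers of glial and mesenchymal tumor cells were present, with differences between the lines. OLIG2 of U251 was at 0 TPM in every Untreated library, at most 1.33 TPM in any other, and too low to be tested. PDGFRA of U87 was 1.71 to 5.70 TPM. VIM lay at 984 to 1459 TPM in U87 and at 599 to 1161 TPM in U251, and CD44 at 471 to 732 TPM and 394 to 864 TPM. SOX2 was at most 0.411 TPM in U87 and 105 to 176 TPM in U251, and GFAP was 2.33 to 19.1 TPM in U87 and 222 to 1309 TPM in U251. GFAP of U251 fell from 1258 ± 46.3 TPM (SD, n = 3) in Untreated to 342 ± 36.6 TPM on D3, 243 ± 18.2 TPM on D28 and 573 ± 2.42 TPM after washout, with 713 ± 92.1 TPM on D14. PDGFRA of U251 fell from 213 ± 10.7 TPM to 29.0 ± 2.65 TPM on D3 and NES from 168 ± 1.72 TPM to 64.2 ± 4.20 TPM, and all 6 line markers tested in U251 were lower on D3 by the adjusted p alone (16% of all genes). GFAP of U87 rose instead, from 4.84 ± 2.32 TPM to 14.2 ± 5.70 TPM on D28 and 14.2 ± 2.50 TPM after washout, and OLIG2 of U87 rose from 7.16 ± 2.28 TPM to 26.7 ± 5.02 TPM after washout, where NES, VIM and CD44 were lower by the adjusted p alone. The part of these changes in the results was not tested. Leukocyte markers were near 0. The 6 markers together (PTPRC, CD3E, MS4A1, CD14, NKG7, LYZ) came to 0.527 to 1.42 TPM in Untreated U87 and at most 3.46 TPM in treated U87, and to 0.466 to 2.21 TPM in Untreated U251 and at most 8.43 TPM in treated U251, with CD3E and MS4A1 listed at 0 in every Untreated library of U87. CD14 of U251, at 0.569 ± 0.602 TPM in Untreated and 4.51 ± 1.32 TPM at D3, accounted for most of that sum at D3.

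The genes lie on 5 chromosomes of GRCh38. ISG15 is at 1001138 to 1014540 of chromosome 1 on the plus strand, UBA7 at 49805209 to 49813953 of chromosome 3 on the minus strand, and UBE2L6 at 57551656 to 57568284 of chromosome 11 on the minus strand. HERC6 (88378739 to 88443097) and HERC5 (88457119 to 88506163) are neighbors on the plus strand of chromosome 4, and USP18 is at 18150118 to 18177397 of chromosome 22 on the plus strand. The 250 bases before the transcription start were read from RefSeq (GRCh38.p14) for the 4 genes with an entry, which are ISG15, UBE2L6 (2 starts), HERC5 and HERC6. They were searched on both strands for GAAANNGAAA, the core of the interferon-stimulated response element bound by the complex with STAT2 and IRF9, and for TTCNNNGAA, the gamma-activated site. The promoters of ISG15, the modifier, and of the neighboring ligase genes HERC5 and HERC6 are shown. Each is written from 5′ to 3′ along the strand of the gene, and capitals mark the matches to GAAANNGAAA or, on the other strand, its complement.

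ISG15, chr1:1013247-1013496, plus strand: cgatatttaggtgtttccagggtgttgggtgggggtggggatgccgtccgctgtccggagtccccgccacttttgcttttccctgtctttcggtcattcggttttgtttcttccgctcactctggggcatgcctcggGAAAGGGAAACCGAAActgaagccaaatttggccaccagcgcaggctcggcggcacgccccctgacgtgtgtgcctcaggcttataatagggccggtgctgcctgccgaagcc

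HERC5, chr4:88456869-88457118, plus strand: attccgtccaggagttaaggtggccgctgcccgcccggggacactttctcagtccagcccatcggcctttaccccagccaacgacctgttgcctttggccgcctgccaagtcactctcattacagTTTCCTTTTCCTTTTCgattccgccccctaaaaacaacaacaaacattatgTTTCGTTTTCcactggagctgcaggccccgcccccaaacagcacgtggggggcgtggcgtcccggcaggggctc

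HERC6, chr4:88378602-88378851, plus strand: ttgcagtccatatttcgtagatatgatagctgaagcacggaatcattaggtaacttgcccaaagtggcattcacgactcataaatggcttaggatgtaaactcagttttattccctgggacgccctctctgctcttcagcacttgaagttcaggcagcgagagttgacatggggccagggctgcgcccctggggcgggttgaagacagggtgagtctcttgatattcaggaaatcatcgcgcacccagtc

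The ISG15 promoter held 2 overlapping matches, from -113 to -104 and from -107 to -98 counted from the start site. In the HERC5 promoter there were 3 on the opposite strand, a pair that overlap (-125 to -116 and -119 to -110) and a further one at -74 to -65. Neither HERC6 nor either start of UBE2L6 held this motif in the 250 bases, and TTCNNNGAA was found in none of the 5 sequences. Among all 35116 promoters of the same length, 3.02% held GAAANNGAAA and 6.57% held TTCNNNGAA. A match is a description of the letters and says nothing of binding in these cells.

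**Figure D1:**
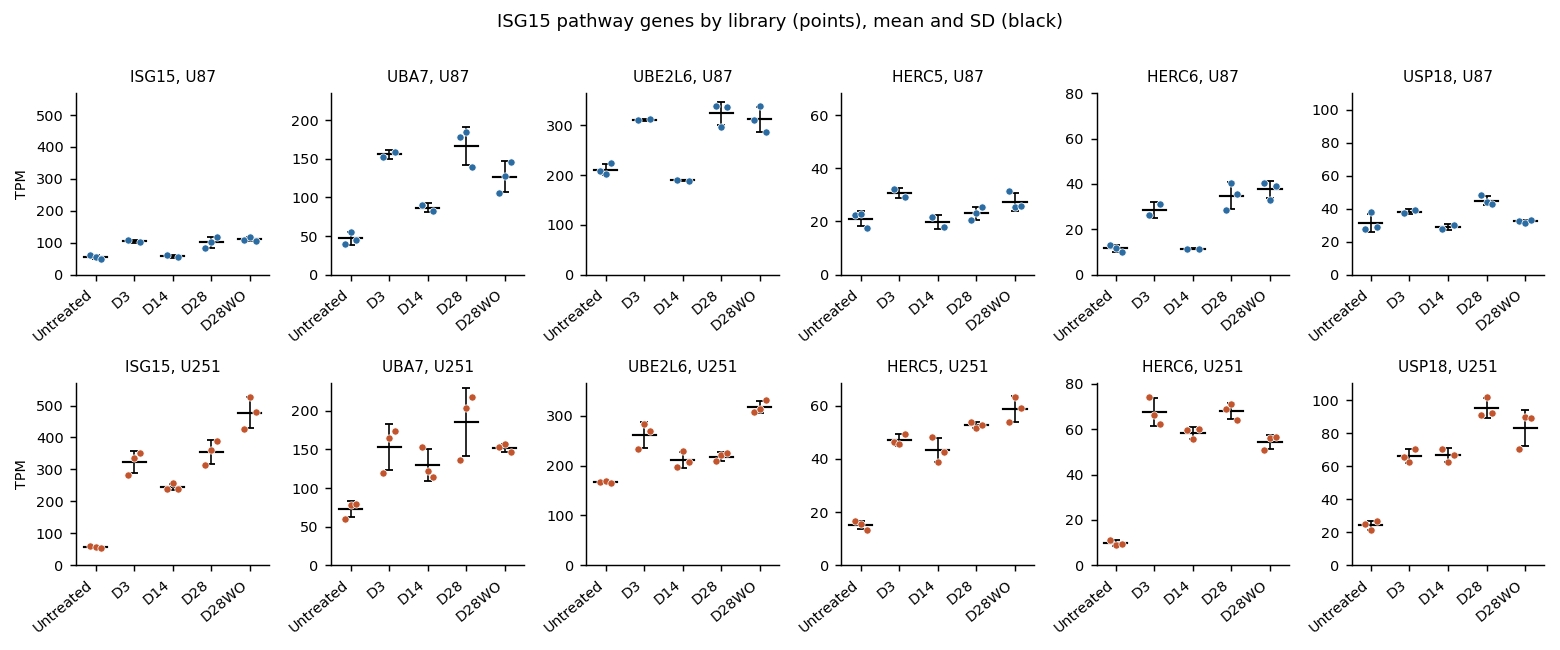
Level of the 6 genes in TPM (vertical axes, starting at 0) by group (horizontal axes), with U87 in the upper row and U251 in the lower row on the same scale for each gene. Points are libraries, black bars the mean and SD. ISG15 of U251 climbs from 52.4 to 61.1 TPM in Untreated to 428 to 528 TPM at D28WO, while in U87 no library passes 118 TPM.

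Levels were compared within each line as log2(TPM + 1) with limma, in a single fit per line over its 5 groups, and p-values were adjusted over all genes tested, 22918 in U87 and 23667 in U251. Following the limits that the study used, a gene is said to have risen or fallen where its adjusted p was under 0.05 and its change over 2-fold, and a difference that met only the first limit is given with its value. The comparisons with Untreated share the Untreated libraries. Across all genes tested, the median difference from Untreated in U87 was 0.20 (D3), 0.15 (D14), 0.19 (D28) and 0.25 (D28WO) on the log2 scale, and in U251 0.13, 0.096, 0.16 and 0.015, so small rises in U87 lie close to the shift of the whole table. An unadjusted p under 0.05 was reached in U87 by 31.6%, 23%, 36.4% and 50% of all genes in the same order, and in U251 by 48.3%, 33.1%, 48.2% and 37.4%.

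ISG15, the modifier itself, was the member with the largest change in U251 at D28WO and a modest one in U87. In U87 its level was 62.1, 53.9 and 49.9 TPM in the Untreated libraries, 108 and 101 TPM at D3, 60.5 and 54.1 TPM at D14, 82.5, 103 and 117 TPM at D28, and 108, 118 and 106 TPM at D28WO. The D14 libraries lay within the Untreated range, and every library of D3, D28 and D28WO lay above both. The log2 fold change against Untreated was 0.91 ± 0.14 (SE) at D3 (adjusted p = 0.00114), 0.85 ± 0.12 at D28 (adjusted p = 0.00062) and 0.99 ± 0.12 at D28WO (adjusted p = 6.9e-05), each under the 2-fold limit, and the D28WO value passed it without the first Untreated library (1.07) or without the first or the third D28WO library (1.00 and 1.02). At D14 it was 0.055, with a 95% confidence interval from -0.24 to 0.35 (adjusted p = 0.86). Tested directly, ISG15 was lower at D14 than at D3 by -0.86 (adjusted p = 0.0057) and higher at D28 than at D14 by 0.79 (adjusted p = 0.00549), and D28WO and D28 differed by 0.14 (adjusted p = 0.476).

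In U251 the ISG15 level was 61.1, 56.1 and 52.4 TPM in Untreated, close to that of U87, and 283, 334 and 350.3 TPM at D3. It was 239, 257 and 239 TPM at D14, 315, 360.5 and 391 TPM at D28, and 428, 528 and 479 TPM at D28WO. Every library with a history of IFN-γ lay above every Untreated library, and the washout libraries lay above all others. ISG15 rose by 2.49 ± 0.099 on the log2 scale at D3 (adjusted p = 2.9e-10), 2.10 at D14 (adjusted p = 5.2e-09), 2.63 at D28 (adjusted p = 1.4e-10) and 3.06 at D28WO (adjusted p = 3.9e-11), the last being 8.31-fold. From D3 to D14 it was lower by -0.39 (adjusted p = 0.01), from D14 to D28 higher by 0.53 (adjusted p = 0.00168), and after washout higher than at D28 by 0.43 (adjusted p = 0.00528). An antisense transcript, ENSG00000224969, overlaps ISG15 on the other strand at up to 1.26 TPM in U87 and 3.58 TPM in U251, and whether counting used the strand is not given in the sources used here.

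UBA7, the activating enzyme, was the member with the largest rise in U87 at D3 and D28. Its levels in U87 were 40.1, 55.5 and 44.8 TPM in Untreated, 152 and 159.5 TPM at D3, 90.8 and 82.9 TPM at D14, 178, 185 and 139 TPM at D28, and 106, 128 and 146 TPM at D28WO. No treated library overlapped Untreated, and those of D14 lay between Untreated and the rest. UBA7 rose by 1.73 ± 0.16 on the log2 scale at D3 (adjusted p = 3.3e-05), 1.82 at D28 (adjusted p = 5.6e-06) and 1.42 at D28WO (adjusted p = 1.8e-05). At D14 it was higher by 0.89 (adjusted p = 0.0144), under 2-fold, and it was the single member of U87 past the adjusted p there. That call was lost with quantile normalization (0.73, adjusted p = 0.0532) and with D14 and Untreated alone in the fit (adjusted p = 0.134).

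In U251 the UBA7 libraries spread more widely, at 60.3, 77.6 and 79.9 TPM in Untreated, 119, 165 and 174 TPM at D3, 154, 122 and 114 TPM at D14, 136, 203 and 218 TPM at D28, and 154, 157 and 147 TPM at D28WO. All treated libraries lay above all Untreated ones, and the treated groups overlapped each other. The rise was 1.06 ± 0.18 on the log2 scale at D3 (adjusted p = 0.00038), 1.33 at D28 (adjusted p = 5.5e-05) and 1.07 at D28WO (adjusted p = 0.00055), and at D14 UBA7 was higher by 0.83 (adjusted p = 0.00548). The D3 and D28WO values sit at the 2-fold limit and fell under it without the first Untreated library (0.93 and 0.94), as did D3 without its second library or the third (0.99 and 0.95) and with median-ratio size factors (0.96). Between treated groups no difference passed the adjusted p (D14 against D3, 0.401; D28 against D14, 0.0707; D28WO against D28, 0.326).

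UBE2L6, the conjugating enzyme, had the highest Untreated level of the 6 genes in both lines, and its changes stayed under 2-fold throughout. In U87 the levels were 207, 201 and 224 TPM in Untreated, 309.5 and 313 TPM at D3, 189 and 189 TPM at D14, 338, 296 and 337 TPM at D28, and 309.9, 338 and 287 TPM at D28WO. Both D14 libraries lay below every Untreated library, and the other treated libraries above. The log2 fold change was 0.56 ± 0.083 at D3 (adjusted p = 0.00106), 0.62 at D28 (adjusted p = 0.00017) and 0.56 at D28WO (adjusted p = 0.00011), and -0.15 at D14 (95% interval -0.33 to 0.027, adjusted p = 0.293). Median-ratio size factors brought the D3 value to 0.37, which no longer passed (adjusted p = 0.0761). D14 was lower than D3 by -0.72 (adjusted p = 0.00067) and D28 higher than D14 by 0.77 (adjusted p = 0.00016).

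In U251 UBE2L6 was 167, 169 and 165 TPM in Untreated, 233, 283 and 269 TPM at D3, 198, 228 and 207 TPM at D14, 209, 221 and 224 TPM at D28, and 307, 313 and 332 TPM at D28WO. The Untreated libraries were the lowest and the washout libraries the highest, with no overlap between D28WO and any other group. UBE2L6 was higher than Untreated by 0.64 ± 0.070 at D3 (adjusted p = 7.3e-06), 0.33 at D14 (adjusted p = 0.00432, and 0.0576 with median-ratio size factors), 0.38 at D28 (adjusted p = 0.00066) and 0.92 at D28WO (adjusted p = 3.4e-07). Washout against D28 gave 0.54 (adjusted p = 7.5e-05), so that UBE2L6 and ISG15 were the 2 members higher after washout than under continued IFN-γ.

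The 2 ligase genes, neighbors on chromosome 4, are given next to each other, and their difference was not tested. In U87, HERC5 was 22.5, 22.8 and 17.7 TPM in Untreated, 32.1 and 29.3 TPM at D3, 21.5 and 17.9 TPM at D14, 20.4, 23.1 and 25.6 TPM at D28, and 31.4, 25.3 and 25.7 TPM at D28WO. The D14 and D28 libraries overlapped Untreated and those of D3 and D28WO did not. HERC5 was higher at D3 by 0.53 ± 0.16 on the log2 scale (adjusted p = 0.0385), a call lost under quantile normalization (0.23, adjusted p = 0.374) and median-ratio size factors (0.35, adjusted p = 0.106), and without the D14 and D28WO libraries (adjusted p = 0.0745). Its other values against Untreated were -0.082 at D14 (adjusted p = 0.806), 0.13 at D28 (adjusted p = 0.534) and 0.37 at D28WO (adjusted p = 0.0507), and under quantile normalization those at D28 and D28WO turned negative (-0.19 and -0.0025).

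HERC6 in U87 was 12.8, 11.7 and 10.1 TPM in Untreated, 26.1 and 31.1 TPM at D3, 11.2 and 11.5 TPM at D14, 28.6, 40.3 and 35.4 TPM at D28, and 40.4, 33.1 and 39.3 TPM at D28WO. The D14 libraries fell inside the Untreated range and all others lay above 26 TPM. HERC6 rose by 1.24 ± 0.16 on the log2 scale at D3 (adjusted p = 0.00052), 1.51 at D28 (adjusted p = 3.3e-05) and 1.62 at D28WO (adjusted p = 8e-06), and the D3 value came to 0.87 under quantile normalization, below the 2-fold limit. At D14 it was -0.019 (95% interval -0.38 to 0.34, adjusted p = 0.975). HERC6 was the member that changed by over 2-fold between treated groups of U87: it fell from D3 to D14 by 1.26 on the log2 scale (adjusted p = 0.00157) and rose from D14 to D28 by 1.53 (adjusted p = 0.00017). With the D3 and D14 libraries alone in a fit, 2 against 2, the fall had an adjusted p of 0.103.

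In U251 both ligase genes rose at every time point. HERC5 went from 16.7, 15.4 and 13.3 TPM in Untreated to 46.3, 45.6 and 49.6 TPM at D3, 48.3, 39.0 and 42.8 TPM at D14, 53.8, 51.5 and 53.0 TPM at D28, and 53.8, 63.4 and 59.2 TPM at D28WO, and no treated library lay below 39.0 TPM. Its log2 fold changes were 1.58 ± 0.097 at D3 (adjusted p = 2.4e-08), 1.46 at D14 (adjusted p = 2e-07), 1.74 at D28 (adjusted p = 8.2e-09) and 1.89 at D28WO (adjusted p = 5.4e-09), and no later group differed from the one before it past the adjusted p (0.4, 0.0552 and 0.278 in turn), although D28 against D14 did under quantile normalization (0.29, adjusted p = 0.0216). HERC6 went from 11.2, 8.77 and 9.16 TPM to 74.3, 66.4 and 62.4 TPM at D3, 59.8, 55.5 and 60.0 TPM at D14, 68.9, 71.3 and 64.2 TPM at D28, and 50.8, 56.1 and 56.5 TPM at D28WO. This gene rose by 2.68 ± 0.095 at D3 (adjusted p = 8.1e-11), 2.48 at D14 (adjusted p = 6.8e-10), 2.70 at D28 (adjusted p = 6.8e-11) and 2.38 at D28WO (adjusted p = 3.3e-10). HERC6 was lower at D28WO than at D28 by -0.32 (adjusted p = 0.0216), where HERC5 differed by 0.15, and median-ratio size factors moved the HERC6 value to -0.24 (adjusted p = 0.0515).

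USP18, the protease, passed the adjusted p against Untreated at 1 time point in U87 and rose at all 4 in U251, and the difference between the lines was not tested. In U87 it was 27.9, 37.8 and 28.8 TPM in Untreated, 37.3 and 39.2 TPM at D3, 27.5 and 29.9 TPM at D14, 48.4, 43.8 and 42.7 TPM at D28, and 32.5, 31.5 and 33.2 TPM at D28WO. All D28 libraries and 1 of the 2 D3 libraries lay above every Untreated one, and the D14 and D28WO libraries did not. USP18 was higher at D28 by 0.51 ± 0.11 on the log2 scale (adjusted p = 0.00851), which did not pass under quantile normalization (0.28, adjusted p = 0.0821) or with D28 and Untreated alone in the fit (adjusted p = 0.0669), and its values at D3, D14 and D28WO were 0.28, -0.12 and 0.050 (adjusted p = 0.15, 0.619 and 0.756). After washout it was lower than at D28 by -0.46 (adjusted p = 0.016), and it was the 1 member of U87 with a washout difference past the adjusted p. That difference held under quantile normalization (-0.54, adjusted p = 0.00255).

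In U251 USP18 was 24.9, 21.3 and 26.7 TPM in Untreated, 65.6, 62.4 and 70.8 TPM at D3, 70.7, 62.7 and 67.2 TPM at D14, 91.3, 102 and 92.7 TPM at D28, and 70.5, 90.1 and 89.1 TPM at D28WO. All treated libraries lay above 62 TPM, and those of D28 lay above every other. The gene rose by 1.41 ± 0.10 at D3 (adjusted p = 1.5e-07), 1.43 at D14 (adjusted p = 5.9e-07), 1.93 at D28 (adjusted p = 5.7e-09) and 1.73 at D28WO (adjusted p = 2.8e-08). D28 was higher than D14 by 0.51 (adjusted p = 0.00334), and the washout difference from D28 was -0.20 (adjusted p = 0.171). A near copy of the gene, USP41P, with which reads could be shared, had at most 1.09 TPM in a U251 library.

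**Figure D2:**
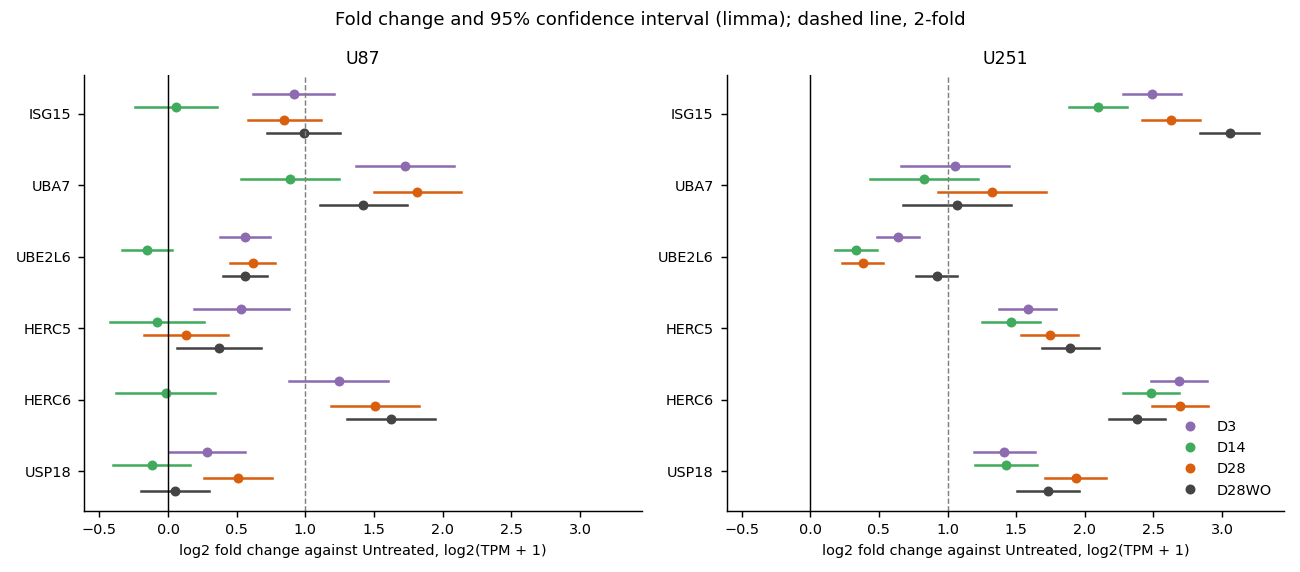
Log2 fold change against Untreated (horizontal axis, log2(TPM + 1) scale) for each gene at D3, D14, D28 and D28WO, with 95% confidence intervals from limma, U87 at left and U251 at right; the solid line is no change and the dashed line 2-fold. In U87 the D14 intervals of all genes but UBA7 include 0, and in U251 every interval lies above 0.

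Counted over the 6 genes, more members passed the limits in U251 than in U87 at each time; the lines were fitted apart and set against each other in no test. At D3 of U87, 2 of 6 members rose, against 5.85% of all genes tested, and 5 of 6 were higher by the adjusted p alone, against 12.4% (members' median log2 fold change 0.74, 0.54 above that of all genes). The 5 became 3 with median-ratio size factors, where HERC5 and UBE2L6 were lost, and 4 with quantile normalization, with the replicate number as a block (HERC5, adjusted p = 0.0515) and with D3 and Untreated alone in the fit, where HERC5 was lost. At D14 of U87 none of the 6 rose in the limma test, against 1.89% of genes, and 1 was higher by the adjusted p alone (4.14%). The unadjusted p was under 0.05 for that same gene, UBA7, and the members' median of -0.050 was 0.20 below that of all genes. At D28 of U87 2 members rose (6.77% of genes) and 5 were higher by the adjusted p alone (17.2%), or 4, without USP18, with quantile normalization or with these groups alone in the fit, and at D28WO 2 rose (12.8%) and 4 were higher (28.6%). The members that rose were HERC6 and UBA7 each time. Without the D14 and D28WO libraries, 2 members again rose at D3 and at D28, and 4 and 5 were higher by the adjusted p alone.

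In U251, 5 of 6 members rose at D3 (9.72% of genes), 4 at D14 (4.72%), 5 at D28 (11.9%) and 5 after washout (4.07%), and all 6 were higher by the adjusted p alone at each time (24.9%, 13.8%, 25.9% and 14.3% of genes). With median-ratio size factors the 6 at D14 became 5, without UBE2L6. UBE2L6 stayed under 2-fold each time, and UBA7 did so at D14. The members' medians were 1.50, 1.44, 1.84 and 1.81 in that order, which is 1.37, 1.35, 1.67 and 1.80 above the medians of all genes. Leaving out the D14 and D28WO libraries changed neither count at D3 or D28. No member fell against Untreated in the limma test, by both limits or by the adjusted p alone, in either line, while the genes that fell by both limits on D3, D14, D28 and D28WO were 0.384%, 0.209%, 0.611% and 2.12% of those tested in U87 and 4.55%, 1.04%, 3.35% and 3.38% in U251.

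Between treated groups of U87, most members were lower at D14 than at D3 and higher at D28 than at D14, mainly under 2-fold. From D3 to D14, 4 of 6 members were lower by the adjusted p alone (3.32% of genes) and 1, HERC6, fell by over 2-fold (2.05%). From D14 to D28, 5 were higher by the adjusted p alone (2.94%) and HERC6 rose (1.78%). These counts rest on 2 libraries at D3 and D14, and with only the compared groups in the fit they became 0 and 2 by the adjusted p alone. In U251, D14 against D3 left 2 members lower by the adjusted p alone (ISG15 and UBE2L6, 12.6% of genes), or ISG15 alone with only these groups in the fit (UBE2L6, adjusted p = 0.0843), and D28 against D14 left 2 higher (ISG15 and USP18, 11.3%), with none past 2-fold (3.29% and 4.23% of genes). Under quantile normalization the 2 higher at D28 became 4, with HERC5 and HERC6 (0.24, adjusted p = 0.048) added. The unadjusted p was under 0.05 for 3 and 5 members in these comparisons, and for 36.9% and 32.2% of all genes.

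Washout was set against continued IFN-γ at the same day. In U87 no member rose or fell (3.11% and 2.42% of genes did), none was higher by the adjusted p alone (9.9%) and 1, USP18, was lower (8.44%), and the unadjusted p was under 0.05 for 2 (31% of all genes), the other being UBA7 (-0.40, adjusted p = 0.0813). In U251 no member rose or fell past 2-fold either (1.12% and 8.14% of genes did), 2 were higher by the adjusted p alone (ISG15 and UBE2L6, 10.3%) and 1 was lower (HERC6, 18.8%), and 3 had an unadjusted p under 0.05 (39% of all genes). With the replicate number as a block, the same members passed the adjusted p in both lines.

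The balance between ISG15 and the protease USP18 was followed as a ratio of TPM within each library, without a test. In U87 the ratio was 1.79 ± 0.40 (SD, n = 3) without IFN-γ, 2.74 ± 0.22 on D3 and 2.01 ± 0.28 on D14 (n = 2 each), and 2.27 ± 0.53 on D28 and 3.41 ± 0.29 after washout (n = 3 each). In U251 it was 2.35 ± 0.35, 4.87 ± 0.52, 3.67 ± 0.37, 3.73 ± 0.42 and 5.77 ± 0.35 in the same order (n = 3 each). In both lines the washout libraries held the highest ratios, 3.18 to 3.74 in U87 and 5.38 to 6.07 in U251, and no library of another group reached them.

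The ligase transcripts were compared in the same way. The ratio of HERC6 to HERC5 was 0.551 ± 0.031 in Untreated U87, and then 0.938 ± 0.17 (D3), 0.579 ± 0.085 (D14), 1.51 ± 0.20 (D28) and 1.37 ± 0.13 (D28WO). In U251 it was 0.644 ± 0.064, 1.44 ± 0.17, 1.35 ± 0.10, 1.29 ± 0.086 and 0.928 ± 0.038 in the same order. HERC5 was thus the more abundant in every Untreated library of both lines, and HERC6 in every D28 library.

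**Figure D3:**
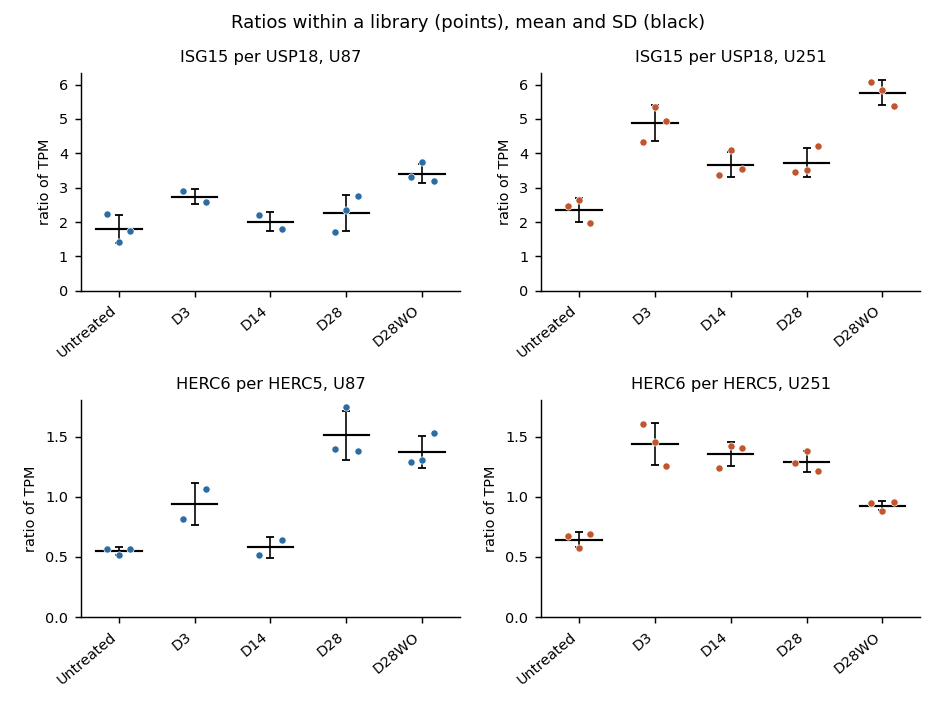
Ratio of ISG15 to USP18 (upper row) and of HERC6 to HERC5 (lower row), in TPM per TPM within a library (vertical axes, starting at 0), by group, U87 at left and U251 at right. Points are libraries and black bars the mean and SD. The ISG15 to USP18 ratio is highest at D28WO in both lines, at 3.41 in U87 and 5.77 in U251.

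Some interferon signaling genes rose in the same libraries as the members, and receptor genes differed in both directions. Of 10 receptor and signaling genes tested in U87, 3 rose at D3, 4 at D28 and 4 at D28WO (5.85%, 6.77% and 12.8% of all genes), and none at D14 (1.89%), where STAT2 was higher by 0.50 (adjusted p = 0.01) and was the single one past the adjusted p. IRF1, STAT2 and IRF9 made up the 3, and JAK2 joined them at D28 and D28WO. STAT2 and IRF9, partners in the type I complex, rose in U87 by 1.26 and 1.16 at D3 (adjusted p = 1.6e-06 and 0.00036). In U251, 4 rose at D3, D28 and D28WO (9.72%, 11.9% and 4.07% of all genes) and 3 at D14 (4.72%), where JAK2 was at 13.4 to 15.8 TPM against 6.53 to 14.4 TPM in Untreated and 54.8 to 63.4 TPM at D3. JAK2 at D14 of U251 was 0.56 (adjusted p = 0.0541), while ISG15, HERC5, HERC6 and USP18 had risen in those libraries. By the adjusted p alone, the numbers of the 10 genes that were higher on D3, D14, D28 and D28WO were 5, 1, 6 and 7 in U87 and 5, 3, 5 and 4 in U251, beside the shares of all genes given above. Those that were lower numbered 1, 0, 1 and 1 in U87, against 4.28%, 1.02%, 6.55% and 13.4% of all genes, and 4, 1, 3 and 2 in U251, against 16%, 7.31%, 14.7% and 13.4%. In U87 the receptor genes IFNGR1 and IFNAR2 were higher at D28WO, at 62.4 and 54.9 TPM against 36.5 and 38.2 TPM in Untreated (0.77 and 0.51, adjusted p = 0.00066 and 0.00732). IFNGR2, a chain of the IFN-γ receptor, was lower in U251 at D3, at 60.3 TPM against 98.1 TPM in Untreated (-0.69, adjusted p = 4.3e-06), as were the type I receptor chains IFNAR1 (-0.31, adjusted p = 0.00081) and IFNAR2 (-0.46, adjusted p = 0.00577) and the kinase JAK1 (-0.28, adjusted p = 0.00514). The median of the list at D28 of U251 was 0.13, against 0.16 for all genes.

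Transcripts of the interferons were low or listed at 0. IFNB1, which encodes the type I interferon IFN-β, was listed at 0 in all 13 U87 libraries and in the 3 Untreated libraries of U251. It stood at 1.09 to 2.21 TPM at D3 of U251, 3.24 to 3.81 TPM at D14, 6.26 to 8.59 TPM at D28 and 0.927 to 2.05 TPM at D28WO. IFNL1, a type III interferon, was 1.91 to 3.53 TPM at D28 of U251, listed at 0 in the Untreated libraries of U251, and at most 0.49 TPM in U87. Of the 6 interferon genes listed for the type I and III families, 2 passed the filter in U251 and 0 in U87. These 2, IFNB1 and IFNL1, passed it through their treated libraries, IFNL1 through D28, so their differences from Untreated are given without a test, and the part of these transcripts in the members' levels was not tested. In U251 the ISG15 level was highest at D28WO and that of IFNB1 at D28, and their relation was not tested.

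**Figure D4:**
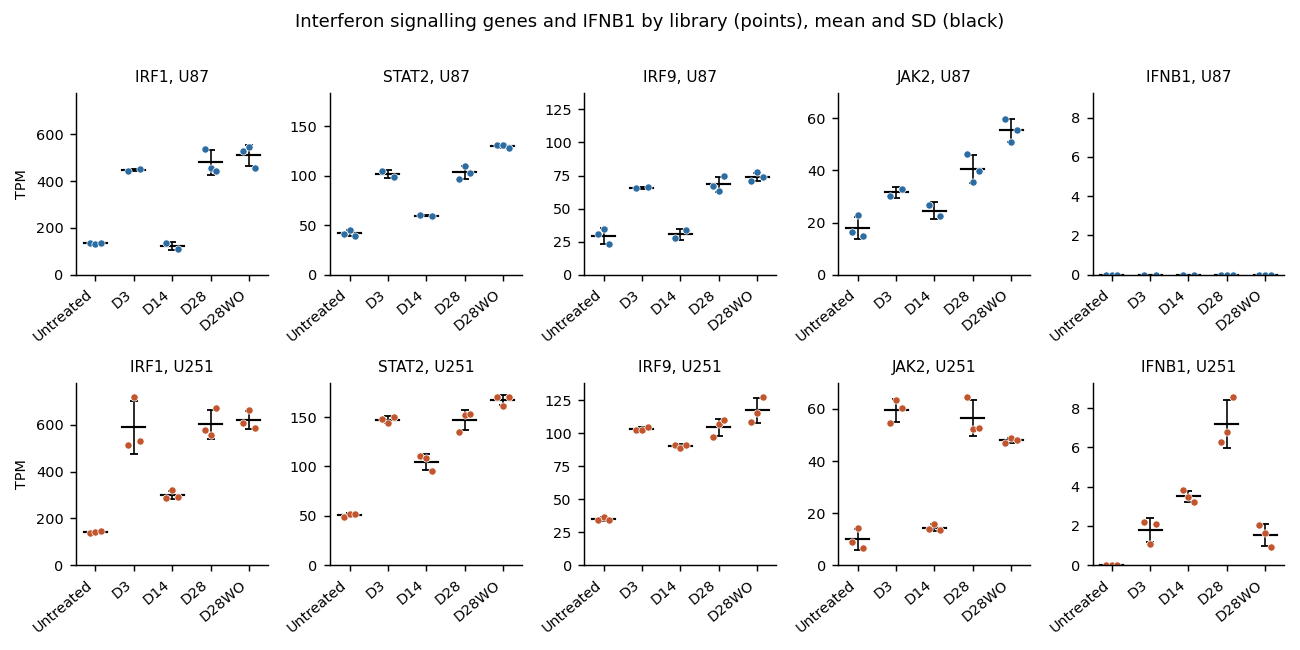
Level of 4 interferon signaling genes and of IFNB1 in TPM (vertical axes, starting at 0) by group, U87 in the upper row and U251 in the lower row on the same scale for each gene. Points are libraries and black bars the mean and SD. IRF1 of U87 returns to 110 to 134 TPM at D14, and IFNB1 is at 0 in all U87 libraries and reaches 6.26 to 8.59 TPM at D28 of U251.

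Among other enzymes known to act on ISG15, TRIM25 rose in single groups. TRIM25, a ligase that is itself tied to RIG-I signaling, rose at D28WO of U87, from 73.7 ± 10.6 to 181 ± 13.6 TPM (log2 fold change 1.29, adjusted p = 6.9e-06), and at D3 of U251, from 77.1 ± 6.03 to 169 ± 9.06 TPM (1.13, adjusted p = 1.2e-06). At the other times in U251 it was higher by 0.61 to 0.92, and in U87 by 0.49 at D3 and 0.67 at D28 (adjusted p = 0.0243 and 0.00193), all under 2-fold. ARIH1, a ligase of the RING-between-RING type, was higher in U87 at D3, D28 and D28WO by 0.43, 0.23 and 0.41 (adjusted p = 0.00528, 0.0405 and 0.00095) and differed in U251 by at most 0.12, with no adjusted p under 0.05. None of the 6 proteases with reported activity on ISG15 other than USP18, and none of the 4 other HERC genes (HERC1 to HERC4), rose or fell at any time in either line with limma. Of all genes, 1.89% to 12.8% rose and 0.209% to 2.12% fell in U87 over the 4 times. In U251 4.07% to 11.9% rose and 1.04% to 4.55% fell. At an unadjusted p under 0.05, at most 2 of the proteases differed at a time in U87 and at most 4 in U251. Among all genes, 23% to 50% reached this in U87 and 33.1% to 48.3% in U251. Of the HERC genes 1 did, HERC4 at D3 of U251, which was higher by 0.22 (adjusted p = 0.0307). By the adjusted p alone, USP21 was higher (0.73, adjusted p = 0.00173) and USP5 lower (-0.60, adjusted p = 0.00137) at D28WO of U87. In U251 USP2 was lower at all 4 times, by -0.88 (D3), -0.92 (D14), -0.82 (D28) and -0.997 (D28WO), the last just short of 2-fold (adjusted p = 0.0219 to 0.0416 over the 4). USP14 of U251 was higher at D3, D14 and D28, by 0.25 to 0.34. USP5 of U251 was lower at D3 and D28WO (-0.17 and -0.26) and higher at D14 (0.28).

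Among the 9 genes listed for proteins that ISG15 is attached to, MX1, RIGI and EIF2AK2 rose. MX1, a GTPase that blocks virus replication, rose in U251 from 26.6 ± 4.23 to 230.0 ± 32.9 TPM at D3 and 334 ± 37.2 TPM at D28WO (log2 fold changes 3.06 and 3.61, adjusted p = 5e-10 and 9.7e-11). In U87 it rose from 3.52 ± 1.30 to 10.1 ± 0.633 TPM at D3 (1.34, adjusted p = 0.0346) and 11.1 ± 1.84 TPM at D28WO (1.45, adjusted p = 0.00521). RIGI, the sensor of viral RNA, rose at each time in U251 (1.86 to 2.50) and at D28WO in U87 (1.23, adjusted p = 0.00012). EIF2AK2, the kinase PKR, rose in U251 at D3 and D28WO (1.17 and 1.27, adjusted p = 3.6e-08 and 2.3e-08), and was higher by less than 2-fold at D14 and D28 there and at D3, D28 and D28WO in U87 (0.38 to 0.92). IRF3, a transcription factor of the antiviral response, rose at no time and was higher by less than 2-fold at D3 and D28WO of U87 (0.51 and 0.28). Of the 9 listed targets, the numbers that rose on D3, D14, D28 and D28WO were 1, 0, 1 and 2 in U87, where 5.85%, 1.89%, 6.77% and 12.8% of all genes rose, and 3, 2, 2 and 3 in U251, against 9.72%, 4.72%, 11.9% and 4.07%, and none fell. The medians of the list in U87 were 0.30, 0.023, 0.26 and 0.28, against 0.20, 0.15, 0.19 and 0.25 for all genes. By the adjusted p alone, 5, 0, 4 and 5 of the 9 were higher in U87 (12.4%, 4.14%, 17.2% and 28.6% of all genes) and 4, 3, 4 and 5 in U251 (24.9%, 13.8%, 25.9% and 14.3%). PCNA, the sliding clamp of DNA replication, was lower after washout in both lines, at 67.6 TPM against 117 TPM in Untreated U87 (-0.78, adjusted p = 1.7e-05) and 74.6 TPM against 121 TPM in Untreated U251 (-0.69, adjusted p = 2.6e-06). The medians of the list in U251 were 0.17, 0.16, 0.34 and 0.18, against 0.13, 0.096, 0.16 and 0.015 for all genes.

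Ubiquitin and its own enzymes stayed under 2-fold. Of 9 genes for ubiquitin, its activating enzymes and conjugating enzymes, none rose or fell in either line with limma, and the list's median in U87 was -0.19 (D3), -0.20 (D14), -0.18 (D28) and -0.33 (D28WO). At an unadjusted p under 0.05, 4, 5, 5 and 6 of them differed in U87, against 31.6%, 23%, 36.4% and 50% of all genes. In U251 8, 3, 6 and 7 did, against 48.3%, 33.1%, 48.2% and 37.4%. By the adjusted p alone, 4, 0, 4 and 6 of them were lower and none higher in U87, where 4.28%, 1.02%, 6.55% and 13.4% of all genes were lower. In U251 4, 1, 3 and 3 were lower, against 16%, 7.31%, 14.7% and 13.4%, and 2, 0, 1 and 2 higher, against 24.9%, 13.8%, 25.9% and 14.3%. UBA6, an activating enzyme of ubiquitin, was among those higher, at 158 TPM on D3 of U251 against 112 TPM in Untreated (0.50, adjusted p = 0.00051). UBB, a ubiquitin precursor, was 517 TPM in Untreated U87 and 318 TPM at D28WO (-0.69, adjusted p = 0.00012). Apart from UBD, none of the 15 genes for other ubiquitin-like modifiers and their enzymes rose or fell in either line with limma. In U251 9.72%, 4.72%, 11.9% and 4.07% of all genes rose. By the adjusted p alone, 4, 2, 3 and 2 of the 15 were higher in U251, UBD included, against 24.9%, 13.8%, 25.9% and 14.3% of all genes. Those lower there numbered 4, 0, 6 and 2, against 16%, 7.31%, 14.7% and 13.4%. In U87 0, 0, 0 and 2 were higher, against 12.4%, 4.14%, 17.2% and 28.6%. There 2, 1, 5 and 6 were lower, against 4.28%, 1.02%, 6.55% and 13.4%. UBD encodes FAT10, a modifier that sends proteins to the proteasome. It too passed the filter through its treated libraries, so its differences from Untreated are given without a test. Its level in U251 was 0 to 0.678 TPM in Untreated and 39.2 to 85.5 TPM at D3. It was 18.5 to 19.9 TPM at D14, 87.4 to 105 TPM at D28 and 13.4 to 17.6 TPM at D28WO. In U87 UBD was at most 2.01 TPM, and listed at 0 in the Untreated libraries.

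Genes with a pattern most like that of a member were sought among the 14063 genes of U87 and 14374 of U251 with a mean of at least 5 TPM, by the root mean square difference of the 4 log2 fold changes against Untreated, which share the Untreated libraries. For ISG15 they were DDX60L (0.037), ZNF490 (0.056) and EVC2 (0.068) in U87, and SLC15A3 (0.089), KLF4 (0.094) and IFIT3 (0.22) in U251. HERC6 of U87 was nearest to DTX3L (0.083), B2M (0.13) and IFI35 (0.13), and HERC5 of U251 to ENSG00000277511 (0.11), PLSCR1 (0.13) and IRF9 (0.14). HERC6 of U251 was nearest to IGFBP4 (0.15), ENSG00000225864 (0.17) and NGFR (0.22), and HERC5 of U87 to WASH6P (0.031), FBXO36 (0.040) and STRBP (0.044). The nearest to UBA7 were ENSG00000290399, TNFRSF9 and LPO in U87 (0.094 to 0.099), and PHF11, PRKY and KCNE4 in U251 (0.052 to 0.099). Those to UBE2L6 were RBM41, PCDHGB2 and CADPS2 in U87 (0.036 to 0.051), and KRT85, SPATS2L and PRKAB2 in U251 (0.084 to 0.091). USP18 was nearest to EPHB2, PLEKHN1 and SETD1A in U87 (0.069 to 0.078), and to DHX58, MLKL and HELZ2 in U251 (0.12 to 0.17). Among the members of U251, HERC5 and USP18 were the closest pair, at 0.15, and in U87 UBE2L6 and HERC5, at 0.26.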

How the data were processed

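RNA of U87 and U251 cells is described from 28 of 30 libraries, grouped by their labels; 2 U87 columns with the same name were not used. The authors deposited TPM, 1 table for each line; per the study's methods, trimmed reads were mapped to GRCh38 by STAR and summed per gene by featureCounts, and how TPM was computed is not given in the sources used here. Every library sums to 1000000, so depth is unknown. The labels give the IFN-γ dose in 2 units, the study's methods give another dose and a different day for the cells without it, and a supplementary sheet calls the matrices CPM.

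Values were taken as log2(TPM + 1), which understates the change of low genes. Genes averaging 0.5 TPM or more in a line entered limma 3.58.1 (R 4.3.3, lmFit, eBayes with trend), with Benjamini-Hochberg adjustment over all genes tested. The p-values measure the spread between these libraries. Fits were tested on simulated data. Libraries with the same replicate number did not deviate together (correlations -0.058 to 0.048), so no block was used.

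The members and lists were chosen with earlier results of these data known. Named are the members, the genes of other lists past both limits against Untreated, up to 3 a list with the highest mean, markers, and up to 3 nearest genes a member. Positions are from GENCODE release 44. Alternatives were a pseudocount of 0.1, no filter, median-ratio size factors, quantile normalization, a filter at 1 TPM, array weights, fits of the compared groups alone, the replicate block, the adjusted p alone, and leaving out each library. One gene of the signaling list is not reported here. Leaving out D14 and D28WO was added after seeing the data.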

Additional observations from a re-analysis of the deposited data

Results flagged for a closer look

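UBE2L6 at D14 against Untreated moved in opposite directions in the 2 lines. In U87 both D14 libraries, at 189 TPM each, lay below every Untreated library (201 to 224 TPM), a log2 fold change of -0.15 that did not pass (limma, adjusted p = 0.293). In U251 every D14 library (198 to 228 TPM) lay above every Untreated library (165 to 169 TPM), with 0.33 (adjusted p = 0.00432), and 0.24 with median-ratio size factors (adjusted p = 0.0576). The difference between the lines was not tested.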

How the results depend on the processing

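At the same limits, the alternatives other than leaving out 1 library gave 696 values for single members, of which 683 kept their direction and their side of the limits, 3 fell under the limits and 10 changed sign. The 3 were HERC6 of U87 at D3 under quantile normalization (0.87), which left 1 of 6 members past the limits, HERC6 of U87 between D3 and D14 with only these groups in the fit, which left 0, and UBA7 of U251 at D3 with median-ratio size factors (0.96). With the adjusted p as the only criterion the members counted in U87 were 5 (D3), 1 (D14), 5 (D28) and 4 (D28WO) against Untreated, 4 for D14 against D3, 5 for D28 against D14 and 1 for D28WO against D28. In U251 they were 2, 2 and 3 for the last 3 comparisons. Sign changes were confined to values that did not pass both limits. Under quantile normalization these were ISG15 at D14 (-0.072), HERC5 at D28 (-0.19) and D28WO (-0.0025), USP18 at D28WO (-0.26) and UBE2L6 between D28 and D28WO (0.026) in U87. With median-ratio size factors they were ISG15 at D14 (-0.12), HERC5 at D28 (-0.046) and USP18 at D28WO (-0.17). In U251, USP18 between D3 and D14 became -0.0027 with quantile normalization and -0.0090 with array weights. The cause was not tested. Over all genes tested, U87 shifted by 0.15 to 0.25 against Untreated, which quantile normalization brought to between -0.026 and -0.0063 and median-ratio size factors to between 0.0058 and 0.075.

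Leaving out 1 library in turn gave 1176 values, 1156 of them on the same side. The count of members past the limits ranged from 4 to 5 at D3 and at D28WO of U251, where UBA7 was lost, from 0 to 1 at D14 of U87, where UBA7 reached 1.02 without the second Untreated library, from 2 to 3 at D28WO of U87, where ISG15 passed 2-fold without any of 3 libraries, and from 1 to 2 for D28 against D14, where UBA7 reached 1.06 without the third D28 library. Signs changed in U87 at D14 for ISG15 (-0.024 to 0.14), HERC5 (-0.21 to 0.043), HERC6 (-0.11 to 0.056) and USP18 (-0.20 to 0.014), at D28WO for USP18 (-0.027 to 0.18), and between D28 and D28WO for UBE2L6 (-0.12 to 0.0031) and HERC6 (-0.013 to 0.23), and in U251 between D3 and D14 for USP18 (-0.028 to 0.061). With the replicate number as a block, 2, 0, 2 and 2 members of U87 passed the limits against Untreated (D3, D14, D28, D28WO), and 5, 4, 5 and 5 in U251, as without the block, and by the adjusted p alone HERC5 of U87 at D3 was lost; the libraries were not paired, since same-numbered ones did not deviate together, D28 and D28WO included, although these groups may share cultures. Libraries per group (2 or 3) and unknown depth limit these values.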
